A study of Bos taurus with 92 samples.

Results

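The genes described here are OCLN, CLDN4, CLDN6 and CLDN7 of the tight junction, CDH1 of the adherens junction, DSC2 of the desmosome and ESRP1, a splicing regulator of epithelial cells. They were chosen by symbol: every probe whose annotation named 1 of these genes was taken, which gave 8 probes for 7 genes out of 8208 probes and 4452 named genes on the array. CDH1 had 2 probes and each other gene had 1. The samples were single blastocysts of the cow, and a custom cDNA array was used, on which each sample was hybridised together with a common reference RNA, on 2 arrays with the dyes exchanged. Blastocysts of 3 kinds were compared: 14 conceived by artificial insemination (AI), 15 made by fertilisation in vitro (IVF) and 15 made by nuclear transfer (NT), in which an oocyte receives the nucleus of a somatic cell. Beside them stood 2 samples of the donor cells for nuclear transfer, called 8 and 9 in the labels. Of the AI embryos 3 have labels beginning with H, and of the NT embryos 8 have labels beginning with 2_ and 7 with 3_, without further explanation. The labels used here do not give the cow, the sire, the donor cell line, the type of donor cell, the day of collection or a hybridisation batch. Replicates are separate embryos, and whether any shared a parent or a donor line is not given. Effects of a batch cannot be told apart from those of the kind of embryo.

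The outer cells of the blastocyst, the trophectoderm, form an epithelium that holds the fluid of the blastocoel. Tight junctions seal the space between these cells: claudins form the strands and set which ions pass, and occludin, the product of OCLN, is a membrane protein of the same strands. E-cadherin, the product of CDH1, joins neighbouring cells through adherens junctions and is needed for compaction of the embryo. Desmocollin 2, the product of DSC2, is a cadherin of the desmosome, which ties the keratin filaments of neighbouring cells together. ESRP1 is no junction protein: it binds RNA and favours epithelial exons in many transcripts. Fibroblasts as a rule have few of these proteins.

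All values are log2 ratios of the sample to the reference, with each array set to a median of 0, so that a value of 1 stands 1 log2 unit above the median spot of the array. A ratio to a reference shows no absolute amount, and values of different genes are therefore not set against each other. The deposited ratio was read as Cy5 over Cy3, a direction that the labels do not state and that marker genes make likely. Read this way, 12 of 18 fibroblast markers were lower in NT embryos than in donor cells and 1 was higher, while 12 of 19 trophectoderm markers other than the 7 genes were higher and 1 was lower. Over all genes 19.8% were higher and 15.0% lower. The 2 arrays of an embryo correlated with r from 0.548 to 0.764 over all probes once turned to the same direction, and the 2 arrays of a donor cell sample with r of 0.248 and 0.325. Array medians as deposited ran from -2.14 to 0.862, and without centring the median gene was 0.44 above its AI level in NT embryos and 0.38 above its IVF level. Differences between kinds of embryo are relative to that shift. Tests are those of limma over all 4452 genes, with p values adjusted by the Benjamini-Hochberg method, a threshold of 0.05 and the standard error (SE) after ±. The comparisons share samples and are not independent of one another.

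**Figure D1:**
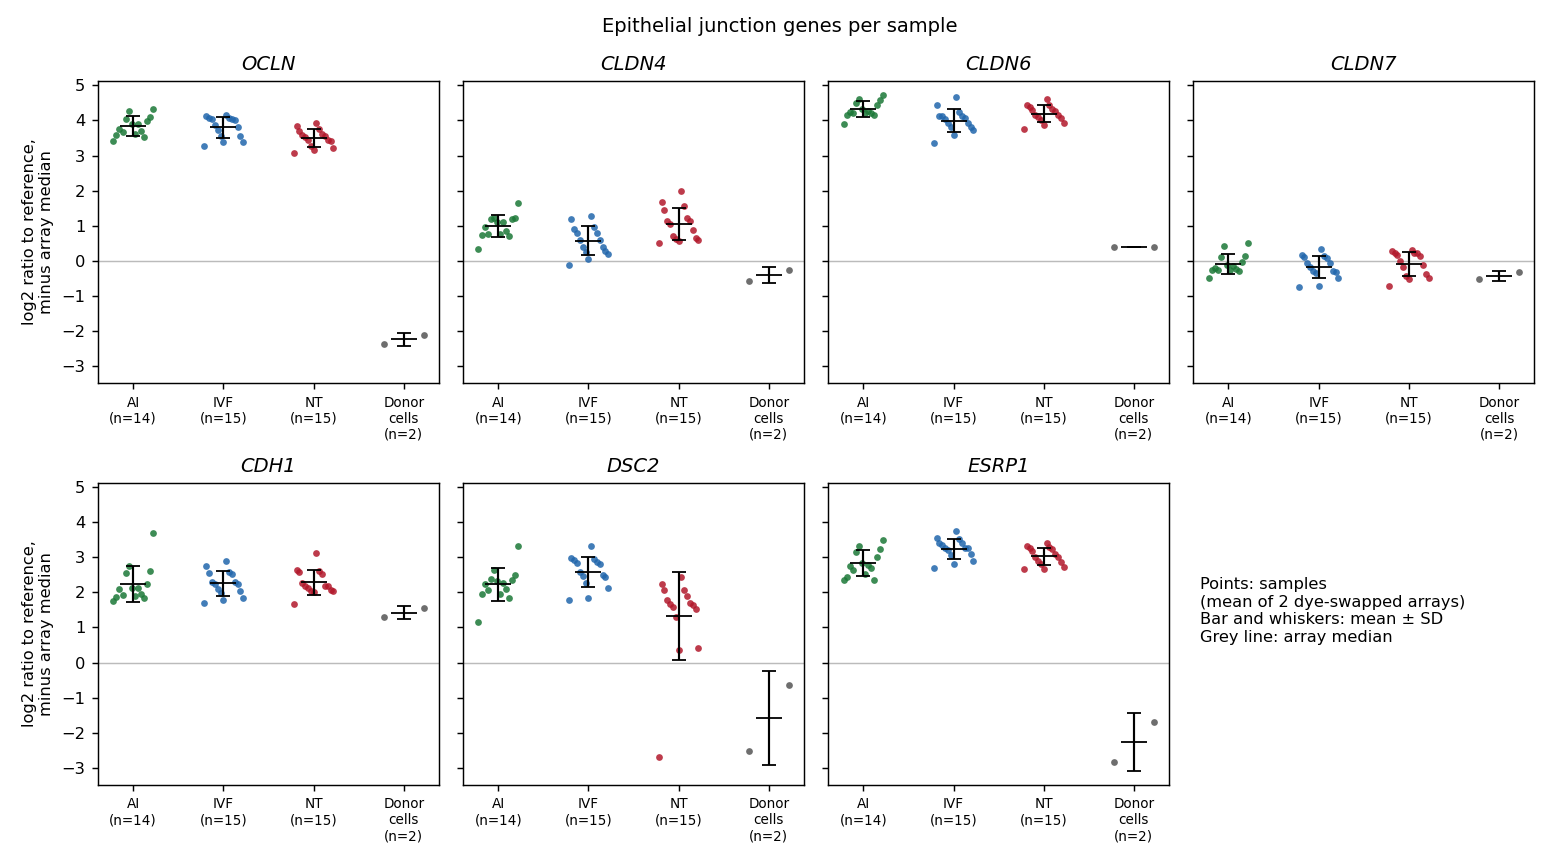
Log2 ratio to the reference, centred on the array median, for each of the 7 genes in 14 embryos from AI, 15 from IVF and 15 from NT and in 2 samples of donor cells; points are samples, and bars with whiskers are the mean and SD. OCLN, CLDN6 and ESRP1 separate all 44 embryos from both donor samples by a wide gap, and 1 NT embryo falls to the donor level for DSC2.

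Of the 7 genes, 6 were higher in blastocysts than in donor cells, in every kind of embryo. The difference was largest for OCLN, ESRP1, CLDN6 and DSC2, smaller for CLDN4 and CDH1, and not detected for CLDN7. Of all 4452 genes, 20.2% were called higher in AI embryos than in donor cells, 18.3% in IVF and 19.8% in NT embryos. The median difference of the 7 genes was 3.80 in AI, 3.60 in IVF and 2.91 in NT embryos, against 0.00, 0.03 and 0.03 over all genes. The 3 comparisons have the same 2 donor samples, and the test takes the spread of those from all groups together. In such whole samples more epithelial cells and more RNA per cell cannot be told apart.

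OCLN lay between 3.41 and 4.32 in AI embryos (median 3.82), between 3.26 and 4.15 in IVF embryos (median 3.88) and between 3.07 and 3.92 in NT embryos (median 3.53). The donor samples stood at -2.11 and -2.36. No embryo came within 5 log2 units of a donor sample. AI embryos exceeded donor cells by 6.08 ± 0.22 (adjusted p = 9.37e-27), IVF embryos by 6.04 ± 0.22 (adjusted p = 1.02e-26) and NT embryos by 5.73 ± 0.22 (adjusted p = 9.72e-26). In each of these tests OCLN ranked 1 of 4452 genes by p. The NT difference corresponds to 53.2-fold.

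CLDN6, a claudin of early embryonic epithelia, lay between 3.89 and 4.73 in AI embryos (median 4.25), between 3.35 and 4.66 in IVF embryos (median 4.05) and between 3.75 and 4.61 in NT embryos (median 4.16). Both donor samples were at 0.39 and 0.40, above the array median, and below every embryo. The difference was 3.93 ± 0.21 in AI, 3.60 ± 0.21 in IVF and 3.80 ± 0.21 in NT embryos (adjusted p = 1.58e-20, 4.18e-19 and 5.31e-20). CLDN4, a claudin of tight epithelia, differed less. It lay between 0.35 and 1.65 in AI, between -0.11 and 1.27 in IVF and between 0.51 and 1.98 in NT embryos (medians 1.04, 0.59 and 1.06), with the donor samples at -0.57 and -0.25. All 44 embryos were above both donor samples, though the lowest IVF embryo was close to donor sample 9. The difference was 1.39 ± 0.30 in AI, 0.98 ± 0.30 in IVF and 1.46 ± 0.30 in NT embryos (adjusted p = 0.000206, 0.00890 and 0.000117). The call in IVF embryos was lost without donor sample 8 (0.82, adjusted p = 0.169) and with arrays as deposited (0.81, adjusted p = 0.175).

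CLDN7, which is expressed in many epithelia, stood near the array median in every group. It lay between -0.48 and 0.50 in AI, between -0.73 and 0.35 in IVF and between -0.71 and 0.30 in NT embryos (medians -0.18, -0.17 and -0.01). The donor samples at -0.52 and -0.33 fell within the range of the IVF and NT embryos. The difference was 0.34 in AI (95% confidence interval -0.15 to 0.83), 0.25 in IVF (-0.24 to 0.74) and 0.34 in NT embryos (-0.15 to 0.83), and none passed the threshold (adjusted p = 0.301, 0.475 and 0.307). With the arrays of the sample in Cy3 alone the IVF and NT differences were 0.72 and 0.78 and passed (adjusted p = 0.0325 and 0.0211); with those in Cy5 alone they were -0.22 and -0.10.

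ESRP1 lay between 2.35 and 3.50 in AI embryos (median 2.76), between 2.68 and 3.75 in IVF embryos (median 3.26) and between 2.65 and 3.41 in NT embryos (median 3.01). The donor samples were at -2.84 and -1.68. Groups did not overlap, and the embryos exceeded donor cells by 5.09 ± 0.25, 5.50 ± 0.25 and 5.29 ± 0.25 in AI, IVF and NT (adjusted p = 7.51e-22, 5.97e-23 and 2.21e-22). DSC2 lay between 1.17 and 3.33 in AI embryos (median 2.26), between 1.77 and 3.33 in IVF embryos (median 2.59) and between -2.68 and 2.44 in NT embryos (median 1.68). The donor samples stood far apart at -2.52 and -0.63. AI and IVF embryos were above both, whereas 1 NT embryo was below both. The difference was 3.80 ± 0.61, 4.15 ± 0.61 and 2.91 ± 0.61 (adjusted p = 1.76e-06, 3.18e-07 and 0.000145), and the NT difference was no longer called without donor sample 8 (1.96, adjusted p = 0.0788).

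CDH1 depended on the probe. Averaged over its 2 probes it was higher in embryos by 0.82 ± 0.31 in AI, 0.83 ± 0.31 in IVF and 0.86 ± 0.31 in NT (adjusted p = 0.0342, 0.0325 and 0.0258), and these calls were lost when either donor sample was left out, with values from 0.69 to 0.99, and under quantile normalisation. The first probe stood near 0 in all groups: its means were 0.00 in AI embryos, 0.15 in IVF embryos and 0.31 in NT embryos, and 0.09 in donor cells, with ranges from -0.98 to 1.77 over the embryos. The second probe had means of 4.36 ± 0.18 (SD, n = 14) in AI, 4.35 ± 0.43 (SD, n = 15) in IVF and 4.26 ± 0.29 (SD, n = 15) in NT embryos, and donor samples at 2.57 and 2.95. Every embryo was above both donor samples on the second probe, the lowest at 3.66.

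Tested by probe, the second probe was higher in embryos by 1.60 ± 0.25 in AI, 1.60 ± 0.25 in IVF and 1.50 ± 0.25 in NT, and it passed the threshold in each of the 3 comparisons with arrays as deposited, under the other scalings, with either dye alone and without either donor sample (adjusted p from 2.27e-05 to 0.00992 over these). The first probe did not pass against donor cells, with adjusted p of 0.914, 0.952 and 0.785. The 2 spots of the first probe correlated with r of 0.122 over the arrays and differed with an SD of 1.24, and 17 of its 184 values were missing; those of the second correlated with r of 0.960 with an SD of 0.12 and no missing value. Within a kind of embryo the 2 probes correlated with r of 0.255 in AI, 0.256 in IVF and -0.040 in NT. Splitting CDH1 by probe was decided after the values were seen.

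**Figure D2:**
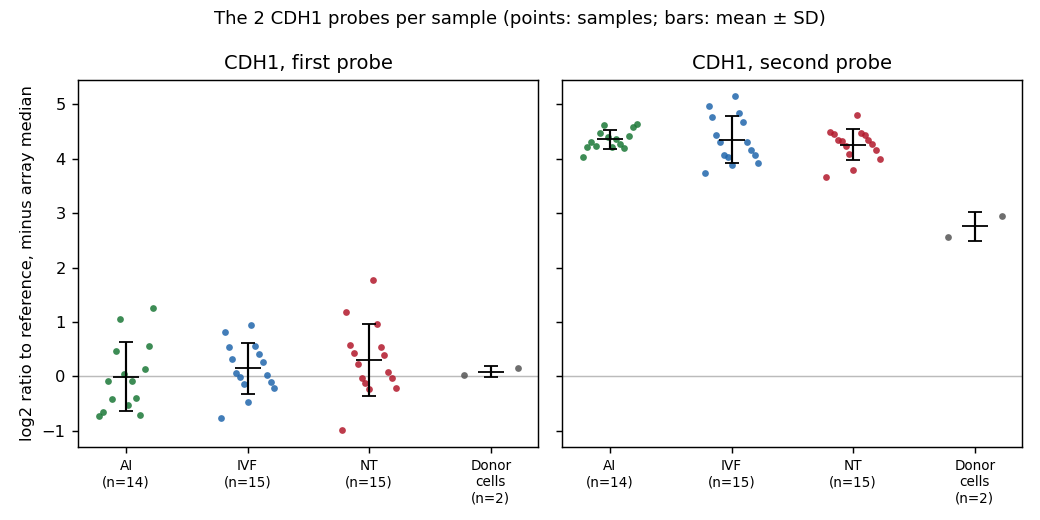
Log2 ratio to the reference, centred on the array median, of the 2 CDH1 probes in each embryo and donor cell sample (points), with mean and SD. The first probe lies near 0 in every group, and the second lies between 3.66 and 5.15 in embryos and at 2.57 and 2.95 in donor cells.

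Between kinds of embryo the 7 genes moved by less. The difference of greatest size was that of DSC2, which was lower in NT than in IVF embryos. IVF embryos had lower CLDN4 and CLDN6 and higher ESRP1 than AI embryos. NT embryos had more CLDN4 and less DSC2 and OCLN than IVF embryos, and less OCLN than AI embryos. The OCLN calls depended on the scaling. So did the calls of CLDN4, CLDN6 and ESRP1 between IVF and AI embryos, none of which passed with arrays as deposited. No difference in CDH1 or CLDN7 was called between kinds of embryo.

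In IVF against AI embryos 3 of the 7 genes were called, 1 higher and 2 lower, while 29.2% of all genes were called in that comparison, 13.8% higher and 15.3% lower. CLDN4 was lower in IVF embryos by a log2 difference of -0.42 ± 0.15 (adjusted p = 0.0297), with 13 of 15 IVF embryos below the AI mean. CLDN6 was lower by a difference of -0.33 ± 0.10 (adjusted p = 0.0150), likewise with 13 of 15 below. The groups overlapped for both genes, and in each 5 of 15 IVF embryos were below all AI embryos. ESRP1 was higher by 0.41 ± 0.12 (adjusted p = 0.0104), with 13 of 15 IVF embryos above the AI mean and 3 above all AI embryos. The differences were -0.04 (95% confidence interval -0.25 to 0.18) for OCLN, -0.09 (-0.33 to 0.15) for CLDN7, 0.01 (-0.30 to 0.32) for CDH1 and 0.35 (-0.25 to 0.96) for DSC2, which did not pass. Their signs were mixed, with a median over the 7 genes of -0.04 against 0.03 over all genes. The DSC2 interval rests on a spread that includes NT embryos, whose DSC2 SD was 1.25. In a fit of AI and IVF embryos alone the SE of DSC2 was 0.17, and DSC2 did not pass (limma, adjusted p = 0.118). With arrays as deposited, or with the sample in Cy3 alone, none of the 3 calls passed. As deposited the differences were -0.38 for CLDN4, -0.29 for CLDN6 and 0.44 for ESRP1 (adjusted p = 0.211, 0.223 and 0.0549), and in Cy3 alone they were -0.25, -0.22 and 0.35 (adjusted p = 0.299, 0.271 and 0.113). The CLDN6 call was also lost under quantile normalisation and under a common median absolute deviation (adjusted p = 0.0928 and 0.356).

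In NT against AI embryos 1 of the 7 genes was called, as lower, beside 7.77% of all genes (3.68% higher and 4.09% lower). OCLN was lower in NT embryos by a difference of -0.34 ± 0.11 (adjusted p = 0.0402), with 13 of 15 NT embryos below the AI mean and 5 below all AI embryos. With arrays as deposited the difference turned to 0.071 (adjusted p = 0.711), which is below the shift of 0.44 of the median gene. The call was also lost under the other scalings, with either dye alone, within either label prefix of NT embryos, and without NT embryo 2_8 (-0.33, adjusted p = 0.0601) or AI embryo 14 (-0.31, adjusted p = 0.0663). DSC2 differed by -0.89 ± 0.30 (1.85-fold) and just missed the threshold (adjusted p = 0.0574), with 13 of 15 NT embryos below the AI mean. With arrays as units and the embryo as a random block DSC2 passed (adjusted p = 0.00394) and OCLN did not (adjusted p = 0.0937). That fit sets 1 correlation between the 2 arrays of an embryo for all genes. The r between these arrays was 0.938 for DSC2 and 0.093 for OCLN, and the SE became 0.22 and 0.135. The swap of calls in that fit is therefore given no weight. DSC2 also passed with the sample in Cy5 alone (-1.05, adjusted p = 0.0199) and with sample weights (-0.89, adjusted p = 0.0481). The remaining differences were 0.06 for CLDN4 (95% confidence interval -0.24 to 0.36), -0.13 for CLDN6 (-0.34 to 0.08), 0.00 for CLDN7 (-0.24 to 0.24), 0.04 for CDH1 (-0.27 to 0.35) and 0.20 for ESRP1 (-0.05 to 0.45). As deposited CDH1 and ESRP1 were called higher in NT embryos (0.45 and 0.61, adjusted p = 0.0399 and 0.00369), but under that scaling 1947 of 4452 genes were higher and 20 lower, against 164 higher and 182 lower after centring. Of the CDH1 probes the first passed there (0.66, adjusted p = 0.0350) and the second did not (0.32, adjusted p = 0.117).

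In NT against IVF embryos 3 of the 7 genes were called, 1 higher and 2 lower, beside 23.5% of all genes (13.5% higher and 10.0% lower). DSC2 was lower in NT embryos by a difference of -1.24 ± 0.30 (2.37-fold, adjusted p = 0.00139). All 15 NT embryos were below the IVF mean and 9 were below every IVF embryo. Among all genes this difference stood at the 0.314th percentile, so that few genes differed by more in that direction. It passed in every alternative run, as deposited included (-0.86, adjusted p = 0.0231). CLDN4 was higher in NT embryos by 0.48 ± 0.15 (adjusted p = 0.0126), with 14 of 15 above the IVF mean and 4 above every IVF embryo; as deposited the difference was 0.86. The CLDN4 call was lost with the sample in Cy3 alone (0.46, adjusted p = 0.0529) and with NT embryos labelled 2_ alone (0.40, adjusted p = 0.104). OCLN was lower by a difference of -0.30 ± 0.11 (adjusted p = 0.0303), with 13 of 15 below the IVF mean, but as deposited it was 0.077 (adjusted p = 0.706). The OCLN call was also lost under quantile normalisation and under a common median absolute deviation. It was lost with either dye alone and with NT embryos labelled 2_ alone (limma, adjusted p from 0.0840 to 0.288 over all of these). With arrays as units and the embryo as a random block OCLN did not pass either (limma, adjusted p = 0.0822), but that fit is given no weight here, as above. CLDN6 (0.20), CLDN7 (0.09), CDH1 (0.03) and ESRP1 (-0.21) did not pass, with 95% confidence intervals of -0.01 to 0.40, -0.15 to 0.33, -0.27 to 0.33 and -0.46 to 0.03. As deposited CLDN6 and CLDN7 passed (0.58 and 0.47, adjusted p = 0.00390 and 0.0430), where 1687 genes were higher and 45 lower, against 601 and 446 after centring. CLDN6 also passed under quantile normalisation (0.29, adjusted p = 0.0221), where 609 genes were higher and 476 lower.

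**Figure D3:**
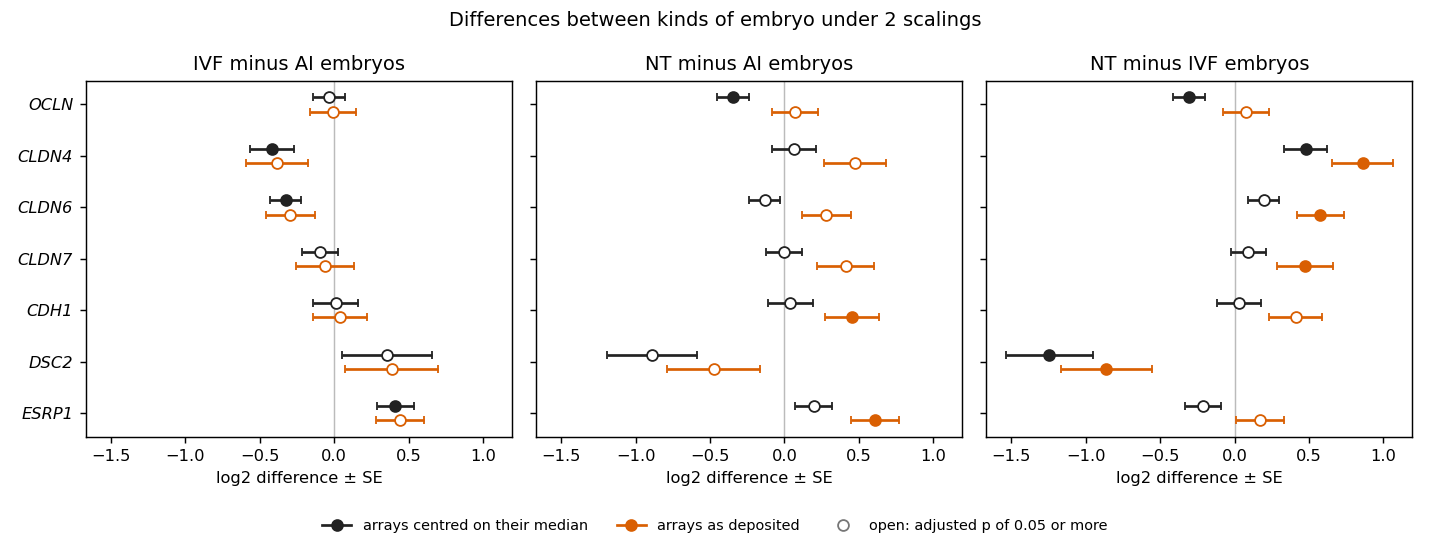
Log2 difference with its SE for the 7 genes in IVF minus AI, NT minus AI and NT minus IVF embryos, with arrays centred on their median (black) and as deposited (orange); filled points have an adjusted p under 0.05. As deposited the NT differences lie to the right of the centred ones, DSC2 remains lower in NT than in IVF embryos, and OCLN crosses 0.

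After centring, the order of the embryo levels was AI, IVF, NT for OCLN, where AI and IVF did not differ beyond their spread. For CLDN4 it was NT, AI, IVF, and NT and AI did not differ beyond their spread. For CLDN6 it was AI, NT, IVF, where only AI and IVF differed. For DSC2 it was IVF, AI, NT, where only IVF and NT differed, and for ESRP1 it was IVF, NT, AI, where only IVF and AI differed. CDH1 and CLDN7 gave no order. Of these orders those of CLDN4 and DSC2 held under all 3 other scalings. As deposited NT embryos came first in OCLN and CLDN6 and ahead of IVF embryos in ESRP1, and under quantile normalisation and a common median absolute deviation IVF embryos came ahead of AI embryos in OCLN and NT ahead of AI embryos in CLDN6. Differences that did not pass are not shown to be absent.

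DSC2 varied more among embryos than the other genes. Its SD within kinds of embryo was 0.82, at the 91.5th percentile of all genes, while that of OCLN was 0.28 (10.8th percentile) and that of CLDN6 0.27 (9.12th percentile), against a median of 0.45. The DSC2 values of the 2 arrays of an embryo correlated with r of 0.938 over the 44 embryos, at the 99.5th percentile of all genes. The mean of each kind was not subtracted for this r, so that differences between kinds are part of it. For the other genes this r was 0.518 for CLDN7, 0.467 for CLDN4, 0.196 for CLDN6, 0.195 for ESRP1, 0.108 for CDH1 and 0.093 for OCLN, with a median of 0.437 over all genes. Which embryo is high or low in OCLN, CLDN6, CDH1 or ESRP1 was thus poorly repeated between the arrays, and single embryos are not ranked for them. These r values describe the arrays and share the reference and the probe.

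Most of the width of DSC2 came from NT embryos, with a mean of 1.33 ± 1.25 (SD, n = 15) against 2.22 ± 0.48 (SD, n = 14) in AI and 2.58 ± 0.44 (SD, n = 15) in IVF. By kind, this SD stood at the 98.4th percentile of all genes in NT, the 55.8th in AI and the 47.8th in IVF embryos. In AI embryos the SD of CDH1 was larger, at 0.52. NT embryo 2_8 stood at -2.68, and its 2 arrays gave -2.91 and -2.45. That is the level of donor sample 8, whose arrays gave -2.37 and -2.66. The next lowest were NT embryos 3_2 at 0.37 and 2_7 at 0.41, again low on each array (0.16 and 0.57, 0.29 and 0.52). The other 12 NT embryos lay between 1.28 and 2.44. The lowest AI embryo, H3, was at 1.17 and the lowest IVF embryo, 6, at 1.77. Without embryo 2_8 the NT mean was 1.62 ± 0.60 (SD, n = 14), and DSC2 was still lower than in IVF embryos (-0.96 ± 0.20, adjusted p = 0.000341). Against AI embryos it was -0.60 ± 0.20 without embryo 2_8, which did not pass (adjusted p = 0.0589).

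**Figure D4:**
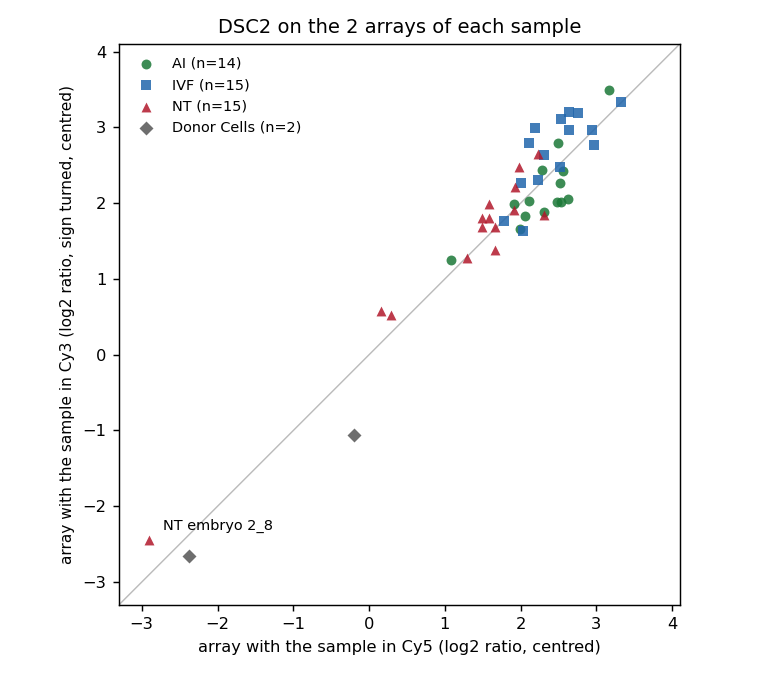
DSC2 on the array with the sample in Cy5 (horizontal) and on the array with the sample in Cy3 (vertical, sign turned), as centred log2 ratios, for each of the 46 samples; the grey line marks equal values. NT embryo 2_8 lies at -2.91 and -2.45 beside donor sample 8, and 2 further NT embryos lie below 1 on each array.

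Embryo 2_8 did not stand apart over the whole array: it correlated with the mean of the other NT embryos with r of 0.863, within the NT range of 0.835 to 0.896. It had OCLN at 3.27 and CLDN6 at 4.45, both within the NT range, and the lowest CLDN4 of the NT embryos at 0.51. Its mean over 19 trophectoderm markers was 1.15, the lowest of 15 NT embryos, and its mean over 18 other genes of the epithelial programme was 0.26, again the lowest. Embryo 2_8 was also the lowest over 18 other tight junction genes. It ranked 7 from the lowest over 3 other desmosome genes, and 11 over 14 adherens junction genes and over 4 gap junction genes. Its mean over 18 fibroblast markers was -1.72, the 12th from the lowest of the NT embryos and far from the 0.77 and 0.86 of the donor samples. In NT embryos as a group the trophectoderm mean ran from 1.15 to 1.87, against 1.51 to 2.15 in IVF and 1.61 to 2.21 in AI embryos, and 7 of 19 trophectoderm markers were lower and 1 was higher than in IVF embryos, beside 10.0% and 13.5% of all genes. Compared with AI embryos 4 of 19 were lower, beside 4.09% of all genes, namely TFAP2A, SSLP1, PAG8 and PAG11, which are named after their values were seen. The part of these markers in the difference of DSC2 was not tested. Their counts are given after centring only. The median difference over the 19 markers was -0.28 against IVF and -0.24 against AI embryos. Both are smaller in size than the shifts of 0.38 and 0.44 of the median gene that centring removes.

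By label prefix, no gene of the 7 was called between NT embryos labelled 2_ and 3_, and 0 of 4452 genes (0%) were (limma, adjusted p), with 346 genes at an unadjusted p under 0.05. Of the 7, CDH1 alone was at such a p: all 8 embryos labelled 2_ were above the mean of those labelled 3_, 2.50 ± 0.34 (SD, n = 8) against 2.04 ± 0.18 (SD, n = 7), with a difference of 0.46 ± 0.20 (limma, adjusted p = 0.588). By probe it was 0.68 ± 0.28 on the first and 0.24 ± 0.17 on the second (limma, adjusted p = 0.579 and 0.752). The larger part thus came from the first probe, whose duplicate spots correlated with r of 0.122. DSC2 was lower than in IVF embryos within each prefix, by differences of -1.39 for 2_ and -1.07 for 3_ (limma, adjusted p = 0.00778 and 0.00165). Between AI embryos labelled H and the other AI embryos 0 of the 7 genes were called by limma, 1 of them at an unadjusted p under 0.05, and 0.629% of all genes. That gene was ESRP1, at 3.15, 3.32 and 3.50 in the H embryos against a mean of 2.69 ± 0.28 (SD, n = 11), a difference of 0.63 ± 0.20 (adjusted p = 0.140). Without the H embryos the ESRP1 difference of IVF against AI embryos was 0.55, and DSC2 in NT against AI embryos was -1.04 and passed (adjusted p = 0.0387).

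Correlations among the 7 genes from embryo to embryo were weak, but those of OCLN, CLDN6, CDH1 and ESRP1 are limited by how poorly their values repeated between the 2 arrays. After the mean of each kind was subtracted, Pearson r over the 44 embryos ran from -0.173 to 0.331 over the 21 pairs, with a median of -0.045, and only 4 pairs had the same sign within each of the 3 kinds. The highest pair was CLDN4 with DSC2 (r = 0.331, Spearman rho = 0.304), with r of 0.361 in AI, 0.241 in IVF and 0.393 in NT embryos. These r values are descriptions over arrays that share a reference and a scaling. Among 4442 other genes, those most like OCLN over the embryos were MRPL42 (r = 0.573), SLC4A11 (0.549) and VPS29 (0.539). For CLDN4 they were PTPRF (0.572), a transmembrane phosphatase found at adherens junctions, LOC782525 (0.550) and ECRG4 (0.548). For CLDN6 they were TIMM23 (0.639), ARHGEF26 (0.576) and ACP5 (0.561), and for CLDN7 WRAP73 (0.633), PRP3 (0.554) and RGP1 (0.534). CDH1 was most like FGL2 (0.495), KANK1 (0.468) and RXRB (0.455), with r from 0.191 to 0.328 once the 2 embryos farthest in CDH1 were left out. ESRP1 was most like FH (0.653), CARD19 (0.615) and STAU2 (0.575). Spearman rho for the 18 pairs with these 6 genes lay between 0.265 and 0.650. Each partner is among the 3 highest of 4442 genes, a choice that raises its r. OCLN with MRPL42 had r of 0.038 in AI, 0.862 in IVF and 0.732 in NT embryos. For OCLN, CLDN6, CDH1 and ESRP1 the partner r exceeded that between the 2 arrays of an embryo (0.093, 0.196, 0.108 and 0.195). These measures are unlike. The partner r uses the mean of both arrays after subtracting the mean of each kind. The r between arrays uses single arrays without that subtraction. Whether variation of the arrays gave these likenesses was not tested.

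DSC2 was most like HKDC1 (r = 0.701, rho = 0.461), COTL1 (0.657, rho = 0.648) and SH3YL1 (0.596, rho = 0.100). Without the 2 embryos farthest in DSC2 these r values were 0.471, 0.617 and 0.218. The likeness to COTL1, an actin-binding protein, was present in each kind (r of 0.512 in AI, 0.440 in IVF and 0.794 in NT), whereas that to SH3YL1 rested on few NT embryos (r of -0.331 in AI, -0.071 in IVF and 0.874 in NT). The likeness to HKDC1 was likewise strong in NT embryos only (r of 0.168 in AI, 0.189 in IVF and 0.851 in NT).

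Other genes of the junctions and of the epithelial programme were measured as listed beside the 7. Against donor cells, NT embryos had 6 of 18 tight junction genes higher and 3 lower (19.8% and 15.0% of all genes), with a median of 0.24 against 0.03 over all genes. The 3 of smallest p were YBX3, a Y-box protein that binds the scaffold ZO-1 (-3.80 ± 0.20), F11R, the junctional adhesion molecule A (2.62 ± 0.18), and RAB13, a small GTPase of tight junction traffic (-2.80 ± 0.28). Of 14 adherens junction genes 3 were higher and 1 was lower, among them PTPN1 (0.91 ± 0.26), CTNND1, which encodes p120 catenin (1.51 ± 0.44), and ACTN1, an actin crosslinker (-1.14 ± 0.28). Of 3 desmosome genes PPL, which encodes periplakin, was lower (-1.78 ± 0.25), and of 4 gap junction genes GJB5 was higher (0.77 ± 0.27) and GJB6 lower (-0.71 ± 0.28). Of 18 genes of the epithelial programme 8 were higher and 1 was lower: EPCAM, an epithelial adhesion molecule (4.32 ± 0.27), RBM47, an RNA-binding protein (4.18 ± 0.25), and EZR, which links membrane and actin (1.63 ± 0.26), had the smallest p. Of 6 mesenchymal counterparts 4 were lower and 1 was higher, with MBNL1, a splicing factor that acts on many exons (-4.79 ± 0.44), TGFBR2 (-1.87 ± 0.25) and ITGB1 (-1.89 ± 0.30) first by p. The single genes against the trend of their list, MYO6 among the epithelial genes (-1.16) and PTBP1 among the mesenchymal ones (1.13), are named after their values were seen. Over the 6 lists 19 of 63 genes were higher and 11 lower, and of these 30 genes 24 passed as deposited and none changed sign under any of the 3 other scalings.

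**Figure D5:**
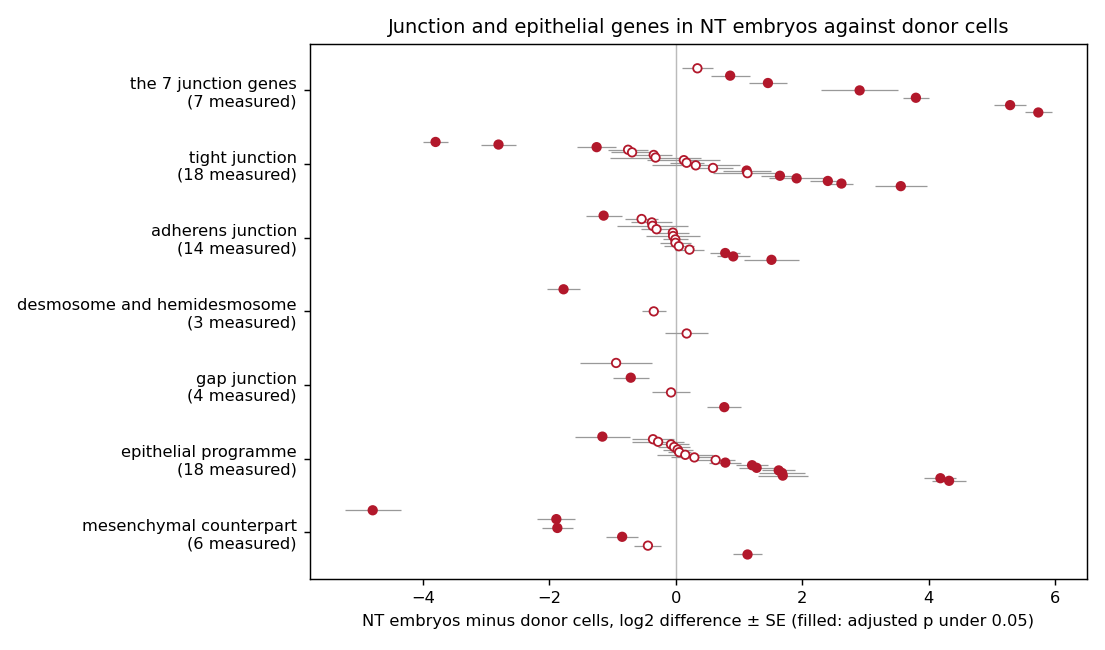
Log2 difference with its SE between 15 NT embryos and 2 donor cell samples for each measured gene of the 7 and of 6 lists; filled points have an adjusted p under 0.05. Of the 7 genes 6 are filled and lie to the right, whereas the tight junction list has 6 filled genes to the right and 3 to the left.

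Between kinds of embryo these lists moved in mixed directions. In IVF against AI embryos 3 of 18 tight junction genes were higher, beside 13.8% of all genes (15.3% were lower), namely YBX3 (0.60 ± 0.10), CDK4, listed for its binding to YBX3 (0.57 ± 0.14), and CGN, the plaque protein cingulin (0.54 ± 0.14). Of 14 adherens junction genes 5 were higher and 3 lower, with ACTN1 (-0.96 ± 0.14), PTPN1 (0.62 ± 0.13) and RHOA (0.58 ± 0.13) first. The desmosome genes PERP (0.69 ± 0.09) and PPL (0.53 ± 0.13) and the connexin gene GJB6 (0.50 ± 0.14) were higher. In the epithelial list 3 genes were higher and 2 lower, with MYO5B, a motor of apical traffic (0.79 ± 0.19), ESRP2, the paralogue of ESRP1 (0.46 ± 0.12), and MUC1 (0.68 ± 0.18) first. Of the mesenchymal counterparts QKI was lower (-0.52 ± 0.11), and ITGB1 (0.58 ± 0.15) and RBFOX2 (0.33 ± 0.12) were higher. Over the 6 lists 22 of 63 measured genes were called (34.9%, against 29.2% of all genes), of which 15 passed as deposited. ESRP1 and ESRP2 were thus each higher in IVF than in AI embryos.

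Of the 3 listed desmosome genes, NT embryos had PERP (-0.63 ± 0.09) and PPL (-0.90 ± 0.12) lower than IVF embryos, as DSC2 was. The remaining 1 was not called and had a difference above 0. Against AI embryos 0 of these 3 were called. ESRP2 was lower in NT than in IVF embryos (-0.44 ± 0.12). As deposited PPL alone of PERP, PPL and ESRP2 passed (-0.52), with PERP at -0.25 and ESRP2 at -0.06. Of the other lists, YBX3 (-0.46), CDK4 (-0.53), RAC1 (-0.63), PTPN1 (-0.63), MYO5B (-0.90), RBM47 (-0.59), GJB6 (-0.47) and ITGB1 (-0.41) were lower than in IVF embryos, and JAM3 (0.86) and PTPRF (1.37) were higher. In all, 17 of the 63 listed genes were called in NT against IVF embryos (27.0%, against 23.5% of all genes), of which 4 passed as deposited and none changed sign. Against AI embryos 5 of 63 were called (7.94%, against 7.77% of all genes), so that the lists were near the share over all genes: JAM3 higher (0.90 ± 0.27) and ACTN1 (-0.71 ± 0.14), RAC1 (-0.44 ± 0.12), RBM47 (-0.53 ± 0.13) and QKI (-0.43 ± 0.11) lower. As deposited 1 of the 5, JAM3 (1.32), passed.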

How the data were processed

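Single blastocysts and donor cells had been measured on 92 arrays, 2 per sample. Per the labels' protocols, linear amplification of the RNA took more rounds for the samples than for the reference RNA, and dyes were coupled to aminoallyl-modified cDNA. The authors deposited 1 log2 dye ratio per spot; scanner software, background correction and normalisation are not given in the sources used here, and no intensities were used here. The number of arrays limits the precision.

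A fill value of 16.61 was set to missing in 2657 cells, and 4.39% of the cells were empty. The sign of each array that held its sample in Cy3 was turned, each array was centred on its median, and the 2 spots of a probe, probes of a gene and the 2 arrays of a sample were averaged in that order. Adjacent spots were taken as a probe, since all 5693 annotated pairs agreed in annotation. The 46 samples entered 1 group-means fit (limma 3.58.1, R 4.3.3), tested on simulated data. A filter asking for values in 50% of each kind of embryo removed no gene. Alternatives covered scaling, dye, weights, the unit of testing, label prefixes, donor samples and shared embryo numbers. The probe table supplied the symbols, and no genome or sequence was used here.

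The 7 genes and all gene lists were chosen with earlier results of these data known, and centring follows an earlier view of the array medians. From each list the text names up to 3 genes of smallest p past the threshold in each comparison between kinds of embryo and in NT embryos against donor cells, and for each of the 7 genes the 3 with the highest Pearson correlation among genes with values in at least 40 embryos. AI and IVF embryos share 7 numbers in their labels, and the closing section gives the check of whether these pair embryos.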

Additional observations from a re-analysis of the deposited data

Results flagged for a closer look

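The values of each of the 7 genes were screened for a sample far from the others in the NT embryos labelled 2_ (8 embryos) and 3_ (7 embryos), which made 14 sets of values, of which 2 had such a sample. Chance gives about 1 in 20. The other groups hold over 10 or under 4 embryos and were not screened. DSC2 in NT embryo 2_8, at -2.68, stood apart from the other embryos labelled 2_, with 0.603 of the whole range between it and the next. CDH1 in NT embryo 3_3, at 1.68, was the lowest of the embryos labelled 3_, with 0.575 of the range below the next. The first CDH1 probe gave -0.98 in embryo 3_3 and the second 4.35, so that only the first, whose duplicate spots correlated with r of 0.122, was low there.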

How the results depend on the processing

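The number of the 7 genes called depended on the processing between kinds of embryo, and the cause was not tested. In IVF against AI embryos it was 3, and it was 0 on the deposited scale and 0 with the sample in Cy3 alone (limma, with 1 gene at an unadjusted p under 0.05 in each). In NT against AI embryos it was 1, and it was 2 with arrays as deposited, 2 with sample weights and 2 without the AI embryos labelled H. It was 0 under quantile normalisation, 0 under a common median absolute deviation, 0 with the sample in Cy3 alone, 0 with NT embryos labelled 2_ alone, 0 with those labelled 3_ alone, 0 without NT embryo 2_8 and 0 without AI embryo 14 (limma, with 1 or 2 genes at an unadjusted p under 0.05). With arrays as units and the embryo as a random block, and with the sample in Cy5 alone, it was 1 again, but the gene was DSC2 in place of OCLN. The block fit sets 1 correlation between arrays for all genes, and its swap of calls is given no weight. In NT against IVF embryos the number called was 3, and it was 1 with the sample in Cy3 alone and 1 with NT embryos labelled 2_ alone. OCLN changed sign with arrays as deposited, to 0.071 against AI and 0.077 against IVF embryos. Against donor cells it was 6 in each kind and 5 in AI, 4 in IVF and 4 in NT embryos without donor sample 8, and 5 in each kind without donor sample 9; over the other alternatives it ran from 5 to 6 in AI, from 4 (arrays as deposited) to 6 in IVF and from 5 to 7 in NT embryos. Of the values of single genes and of the CDH1 probes, 653 kept their side of the threshold, 56 lost a call and 12 gained one. A further 2, those of OCLN above, changed sign and had a call in the main run. Changes of sign without a call are among the 653. CLDN6 in NT against AI embryos, for example, went from -0.13 to 0.28 as deposited and to 0.07 under quantile normalisation. Leaving out NT embryo 2_8 and AI embryo 14, and splitting CDH1, were chosen after seeing the data. The filter on missing values removed no gene, so that its absence changed nothing.

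Over all genes, calls as deposited numbered 706 in IVF against AI, 1967 in NT against AI and 1732 in NT against IVF embryos, against 1298, 346 and 1047 after centring. NT against AI gave 546 calls with the sample in Cy5 alone, 217 with it in Cy3 alone, 171 with NT embryos labelled 2_ alone and 174 with those labelled 3_ alone. NT against IVF gave 684 with those labelled 3_ alone. Against donor cells, without 1 donor sample the lowest counts were 1072 in AI, 961 in IVF and 1015 in NT embryos, against 1620, 1505 and 1551. Tested by probe, with 8196 probes, the counts were 2097, 589 and 1843 between kinds of embryo and 2636, 2484 and 2503 against donor cells. AI embryos labelled H against the others gave 28 calls, and 6 as deposited, 14 under quantile normalisation, 17 in Cy5 alone and 11 in Cy3 alone.

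AI and IVF embryos share 7 numbers in their labels. With the number as a replicate block 0 of the 7 genes were called by limma and 0 were at an unadjusted p under 0.05; over the same embryos without a block 0 were called and 3 were at such a p. Over all genes 430 were called with the block and 676 without. Embryos of the same number correlated with r from -0.067 to 0.094 in their deviations from the group means, and 1 of 7 correlated best with its own number. No likeness by number was thus seen over the whole profile. Whether embryos of a number shared a day or a parent is not given in the labels.

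Depth is unknown in ratios, and low signal over background could not be seen. Only 2 donor samples stand behind each difference from donor cells, and DSC2 and ESRP1 differed by 1.89 and 1.16 between them.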

Other observations

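Markers of other cell types were listed to see what the embryos could hold beside trophectoderm. The mean over 3 inner cell mass markers ran from 0.09 to 1.24 in AI, from -0.14 to 0.77 in IVF and from 0.31 to 1.12 in NT embryos, where embryo 2_8 had the highest value of NT embryos, and stood at 1.36 and 1.70 in the donor samples. Only 3 of 15 listed inner cell mass markers were measured. With the donor samples above every embryo, their mean does not mark inner cell mass. Over 8 primitive endoderm markers the mean ran from -0.59 to -0.21 in AI and from -0.64 to -0.03 in IVF embryos. In NT embryos it ran from -0.64 to 0.02, and the mean in the donor samples was higher, at 0.27 and 0.37. Over 2 cumulus and granulosa markers it ran from -0.95 to 0.70 in AI, from -0.61 to 0.25 in IVF and from -0.66 to 0.35 in NT embryos, below the 1.17 and 1.70 of the donor samples, and over 2 blood markers from -1.62 to 0.07, from -1.77 to -0.19 and from -1.76 to 0.24.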
